A study of Homo sapiens with 4 samples.

Results

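The comparison described here set LNCaP cells exposed to enzalutamide (ENZ) for 48 h against LNCaP cells given the solvent. LNCaP is an androgen-sensitive human prostate cancer cell line, and ENZ is an antiandrogen. The untreated group, LNCaP, was cultured with 0.1% DMSO for 48 h, and the treated group, LNCaP-ENZ48, with 10 µM ENZ for 48 h. Single-cell RNA sequencing (scRNA-seq) gave 1 library per group, so no difference below has a replicate check and no test between groups was possible. A barcode was kept as a cell when it held at least 1500 genes, at least 5000 unique molecular identifiers (UMIs, each standing for 1 captured RNA molecule) and under 20% of UMIs from mitochondrial genes. This kept 6584 of the 15452 cells of the series: 2019 of 2358 barcodes in LNCaP and 4565 of 4812 in LNCaP-ENZ48. The other cells came from the resistant LNCaP sublines RES-A (4629 cells) and RES-B (4239 cells), both maintained in 10 µM ENZ, whose levels are set beside the treated ones where they help to read them.

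Androgens are steroid hormones that switch on genes with androgen response elements, DNA sites built from a pair of short half-sites. Luminal prostate cells depend on them for their secretory genes, among them the kallikrein proteases, and for growth. ENZ blocks androgen signalling and is given to patients with advanced prostate cancer.

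The UMIs of all kept cells of a library were summed per gene and expressed as CPM (UMIs of the gene per 1000000 UMIs of that library), which is a relative level and says nothing of the absolute RNA content of a cell. A log2 ratio below is the log2 of the CPM in LNCaP-ENZ48 over that in LNCaP. Brackets hold 95% intervals (exact Poisson for a CPM, exact conditional binomial for a ratio). These intervals cover counting error only, and neither the variation between cells nor that between cultures. LNCaP held 55696198 UMIs (median 26502 UMIs and 4794 genes per cell) and LNCaP-ENZ48 68158371 UMIs (median 13968 and 3280). Whether the lower UMI number per treated cell reflects less RNA or shallower sequencing cannot be told apart. The mitochondrial share had medians of 9.72% and 9.38%, and 5 barcodes were found in both libraries (4 among kept cells). Doublets were not removed. Both libraries had the luminal markers KRT18 (444 and 431 CPM), KRT8 (170 and 186 CPM) and HOXB13 (135 and 156 CPM). The 14 markers of basal, fibroblast, endothelial and immune cells summed to 4.92 and 3.74 CPM in the untreated and treated library, and KRT5, TP63, COL1A2, CDH5, PTPRC, CD3E and MS4A1 had 0 UMIs in both. The neuroendocrine markers CHGA and INSM1 also had 0 UMIs in both, but only 3 of the 16 markers of that list did. Together the 16 reached 103 CPM before and 131 CPM after ENZ.

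To show the sequence context of the most affected genes, the promoters of KLK3 and KLK2 are given first. KLK3 encodes prostate-specific antigen and KLK2 the related protease that activates it. These neighbouring genes lie in the same orientation on chromosome 19, with the KLK3 gene at 50854915 to 50860764 and KLK2 at 50861568 to 50880567 (GENCODE, GRCh38). The bases before each transcription start are from RefSeq (GRCh38.p14), at chr19:50854665-50854914 for KLK3 and chr19:50873189-50873438 for KLK2, both on the plus strand; the RefSeq start of KLK2 lies inside the longer GENCODE span. In capitals is the KLK3 stretch of 15 letters that begins with the half-site AGAACA of androgen response elements, and the stretch of KLK2 most like it.
KLK3: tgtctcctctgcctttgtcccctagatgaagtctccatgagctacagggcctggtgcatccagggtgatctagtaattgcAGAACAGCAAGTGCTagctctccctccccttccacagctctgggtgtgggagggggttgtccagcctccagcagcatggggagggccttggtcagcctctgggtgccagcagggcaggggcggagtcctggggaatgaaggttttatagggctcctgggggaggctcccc
KLK2: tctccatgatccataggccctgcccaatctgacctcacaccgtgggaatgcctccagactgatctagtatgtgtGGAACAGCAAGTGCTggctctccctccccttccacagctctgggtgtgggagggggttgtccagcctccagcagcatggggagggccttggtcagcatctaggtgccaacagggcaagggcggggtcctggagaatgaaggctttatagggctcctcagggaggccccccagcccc

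The stretch began 170 bases before the start of KLK3 and 176 before that of KLK2. The copies differed by 1 substitution, A1G, counted from the first letter of the stretch with the KLK3 base first. With the stretches lined up, 144 of the 155 bases after them were the same in KLK3 and KLK2 (92.9%), against 27 of the 74 bases before them (36.5%). Against the full palindrome, AGAACA and its reverse complement TGTTCT with 3 free letters between, KLK3 matched 10 of 12 letters and differed at T10A and T13G. AGAACA on either strand was found in the 300-base windows (250 bases before and 50 after the start) of 17 of the 186 matched genes that were at least 1.5-fold lower (9.14%), of 2 of 42 that were at least 1.5-fold higher (4.76%), of 490 of 5825 matched genes compared (8.41%) and of 14.8% of all 35116 windows. The forkhead letters TGTTTAC on either strand were found in 2 of the 186 (1.08%) and 2 of the 42 (4.76%), against 2.23% of the genes compared and 3.42% of all windows, and the exact palindrome in 1 window of the table. A match is a description and not a binding site, and its absence says only that these letters are not in the window. Of the genes picked by the naming rule below, 18 had a window, and AGAACA was found in KLK3 and in UGT2B15, where it began 172 bases before the start. UGT2B15 encodes an enzyme that inactivates androgens by glucuronidation. Its letters are shown because UGT2B15 went in the opposite direction (minus strand, chr4:68670795-68670848, half-site in capitals).
UGT2B15: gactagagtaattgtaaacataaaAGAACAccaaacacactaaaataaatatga

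To determine how broadly ENZ changed the transcriptome in 48 h, the 7302 genes that averaged 10 CPM or more over both libraries were compared. Most differed little: 14 genes were at least 2-fold higher in LNCaP-ENZ48 (0.192%) and 48 at least 2-fold lower (0.657%). At 1.5-fold, 58 were higher (0.794%) and 248 lower (3.40%). The median log2 ratio over the 7302 genes was -0.08, the 5th percentile -0.51 and the 95th 0.29, and 65.3% of them were below 0. The excess of lower over higher genes depended on the scaling: TMM and DESeq2 size factors moved the median of all genes by 0.10 and 0.11, and the genes past 1.5-fold then became 102 higher and 157 lower, and 108 higher and 157 lower. In cells called G1 they were 68 and 157, and in cells of 16000 to 25000 UMIs 158 and 256. Lower genes were also more frequent among weakly expressed ones, with 102 of 2379 genes at 10 to 20 CPM past 1.5-fold against 2 of 202 genes above 500 CPM.

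The strongest decreases were mostly in androgen-induced genes of the prostate. By the naming rule, which took the genes with the lowest ratio that were past 1.5-fold under every alternative processing, the leading genes reported here were KLK2, KLK3, GPR158, SLC45A3, KCNN2, ZBTB16, KLK4, TMPRSS2, DSEL, AADAT and C1orf116, of which KLK2, KLK3, KLK4, SLC45A3, KCNN2, ZBTB16, TMPRSS2 and C1orf116 are on the androgen-induced list described below. KLK2 was at 321 CPM [317, 326] before and 26.2 CPM [24.99, 27.4] after ENZ, a 12.3-fold decrease (log2 ratio -3.62 [-3.69, -3.55]). KLK3 was at 733 CPM [726, 739.8] and 93.8 CPM [91.5, 96.1], 7.81-fold lower (-2.97 [-3.00, -2.93]). These genes thus kept a measurable level after 48 h rather than dropping to 0, and the intervals of the libraries were far apart. KLK2 and KLK3 are close paralogs, so reads of one can be assigned to the other.

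TMPRSS2, a membrane serine protease whose promoter drives ERG fusions in many prostate cancers, was at 107 and 25.6 CPM (-2.06 [-2.14, -1.98]), and the protease KLK4 at 146 and 34.6 CPM (-2.07 [-2.14, -2.01]). The membrane transporter SLC45A3, also called prostein, was at 35.6 and 7.04 CPM (-2.34). The potassium channel KCNN2 was at 53.6 and 11.4 CPM (-2.24) and the orphan receptor GPR158 at 38.1 and 7.42 CPM (-2.36). The zinc finger repressor ZBTB16 was at 43.1 and 9.21 CPM (-2.22), the epimerase-like DSEL at 135 and 33.7 CPM (4.01-fold lower), the aminotransferase AADAT at 35.8 and 9.26 CPM (-1.95), and C1orf116, also called SARG, at 23.8 and 6.43 CPM (-1.89). In all, 61 lower and 29 higher genes of at least 20 CPM in a library were past 1.5-fold under every alternative of cells and scaling.

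The resistant sublines held some of these genes at other levels than the short exposure and some at like levels. RES-A held KLK3 at 0.0341 CPM, KLK2 at 0.0852 CPM, KLK4 at 0.290 CPM and ZBTB16 at 0.0170 CPM, far under their LNCaP-ENZ48 levels. RES-B held KLK3 at 30.4 CPM (under the treated level), KLK2 at 23.2 CPM (close to it) and KLK4 at 64.9 CPM (above it), while SLC45A3 was at 0.641 CPM there and 0.682 CPM in RES-A. C1orf116, at 18.8 and 21.1 CPM in RES-A and RES-B, was nearer to its LNCaP than to its LNCaP-ENZ48 level in both. GPR158 at 6.83 CPM and KCNN2 at 12.8 CPM in RES-B, and DSEL at 37.1 CPM in RES-A, were close to the treated levels. These libraries share the LNCaP control with the treated one and are given as levels only.

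**Figure D1:**
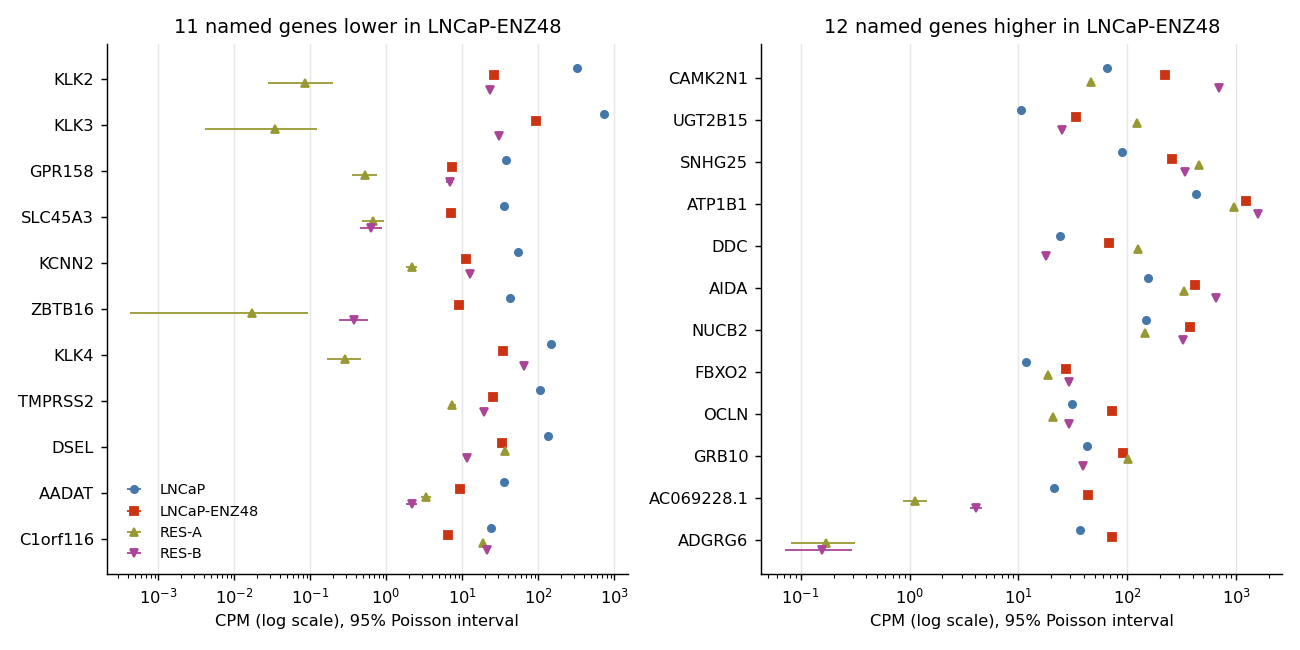
CPM on a log scale of 11 lower genes (left) and 12 higher genes (right) of the naming rule in the 4 libraries, with 95% Poisson intervals (most are smaller than the symbol). KLK2 falls from 321 CPM in LNCaP to 26.2 CPM in LNCaP-ENZ48, and CAMK2N1 goes from 65.3 to 221 CPM.

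The genes that went up were fewer and the differences smaller. CAMK2N1, an inhibitor of the kinase CaMKII, was at 65.3 CPM [63.2, 67.5] before and 221 CPM [217, 224] after ENZ, 3.38-fold higher (1.76 [1.70, 1.81]). UGT2B15 was at 10.6 CPM [9.74, 11.5] and 33.6 CPM [32.3, 35.0] (1.67 [1.54, 1.80]), with the caution that UGT2B genes are nearly identical copies. ATP1B1, the beta subunit of the sodium-potassium pump, was the most abundant of the 12, at 426 CPM [421, 432] and 1219 CPM [1210, 1227] (1.52 [1.495, 1.54]). CAMK2N1 and UGT2B15 are among the genes that androgen is known to repress.

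DDC, the decarboxylase that makes dopamine and serotonin, was at 24.1 and 68.3 CPM (2.84-fold higher), and the small nucleolar RNA host gene SNHG25 at 88.7 and 257 CPM (1.54 [1.49, 1.58]). AIDA, an axin-interacting protein, was at 154 and 415 CPM (1.43), and NUCB2, the precursor of nesfatin, at 149 and 374 CPM (1.33). The ubiquitin ligase subunit FBXO2 was at 11.8 and 27.4 CPM (1.22), the tight junction protein OCLN at 31.0 and 71.9 CPM (1.21), the insulin receptor adaptor GRB10 at 42.3 and 90.4 CPM (1.10), the long noncoding RNA AC069228.1 at 21.4 and 43.1 CPM (1.01) and the adhesion receptor ADGRG6 at 36.4 and 72.1 CPM (0.99). Not one of the 12 was near 0 CPM in LNCaP, so each was already detected in the untreated library. A summed CPM does not tell more cells with the gene from more UMIs per cell. In RES-B, CAMK2N1 reached 689 CPM and AIDA 656 CPM, whereas in RES-A CAMK2N1 was at 46.6 CPM, under LNCaP. In the same order, RES-A and RES-B held DDC at 126 and 17.8 CPM, UGT2B15 at 123 and 25.2 CPM, and ADGRG6 at 0.170 and 0.156 CPM.

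To describe the androgen response as a whole, a hand-written list of 75 androgen-induced genes was followed. It was written with earlier results of these data known, so its contrast with all genes is a description and not independent support. Of its 46 genes compared, 28 were at least 1.5-fold lower (60.9%, against 3.40% of all genes) and 0 at least 1.5-fold higher, and the median log2 ratio was -0.72, against -0.08 over all genes. After the genes named above came MBOAT2, a lysophospholipid acyltransferase (59.1 and 17.1 CPM, -1.79), the ubiquitin ligase HERC3 (17.4 and 5.33 CPM, -1.71), the kinase STK39 (44.8 and 16.96 CPM, -1.40) and the pyrophosphate transporter ANKH (59.8 and 23.3 CPM, -1.36). The stress-related cochaperone FKBP5, a standard androgen target, was at 19.7 and 10.8 CPM (-0.86). The list was not uniform: 11 of the 46 lay within 0.15 of 0, among them the metalloreductases STEAP1 (213 and 220 CPM, 0.05) and STEAP2 (270 and 276 CPM, 0.03), the stress gene NDRG1 (30.7 and 30.96 CPM, 0.01) and TPD52 (125 and 121 CPM, -0.05).

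The 29 androgen-induced genes not compared for their low level held some larger differences. Of these, 17 were at least 1.5-fold lower and 0 at least 1.5-fold higher. The share over all genes of such low level was not counted, and counting error is larger there. At 10 to 20 CPM, 102 of 2379 genes were at least 1.5-fold lower. Among the 17 was HPGD, which degrades prostaglandins and had 681 UMIs in LNCaP and 22 in LNCaP-ENZ48 (12.2 and 0.323 CPM, 37.9-fold lower, -5.24 [-5.93, -4.63]). PGC had 69 and 4 UMIs (-4.40 [-6.32, -2.98]), and the cold channel TRPM8 245 and 21 (-3.84 [-4.55, -3.19]). The phosphatase INPP4B had 214 and 30 UMIs (-3.13 [-3.73, -2.57]). HPGD thus showed a larger decrease than KLK2, but averaged under the 10 CPM required of the genes compared here. Summed over all 75 genes the list fell from 4778 to 2594 CPM. KLK2, KLK3 and KLK4 took 1200 of these CPM in LNCaP and 155 in LNCaP-ENZ48, and the other 72 genes together 3578 and 2439.

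A list of 9 genes repressed by androgen was written in the same way, and 6 were compared. Of the 6, 4 were at least 1.5-fold higher (against 0.794% of all genes) and 0 at least 1.5-fold lower, with a median of 1.10. The 4 were CAMK2N1, UGT2B15, DDC and FOLH1, the prostate-specific membrane antigen used for imaging (327 and 527 CPM, 0.69 [0.66, 0.71]). UGT2B17 was at 21.5 and 27.5 CPM (0.35). The 13 steroid receptor and coregulator genes compared held 0 genes past 1.5-fold in either direction.

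**Figure D2:**
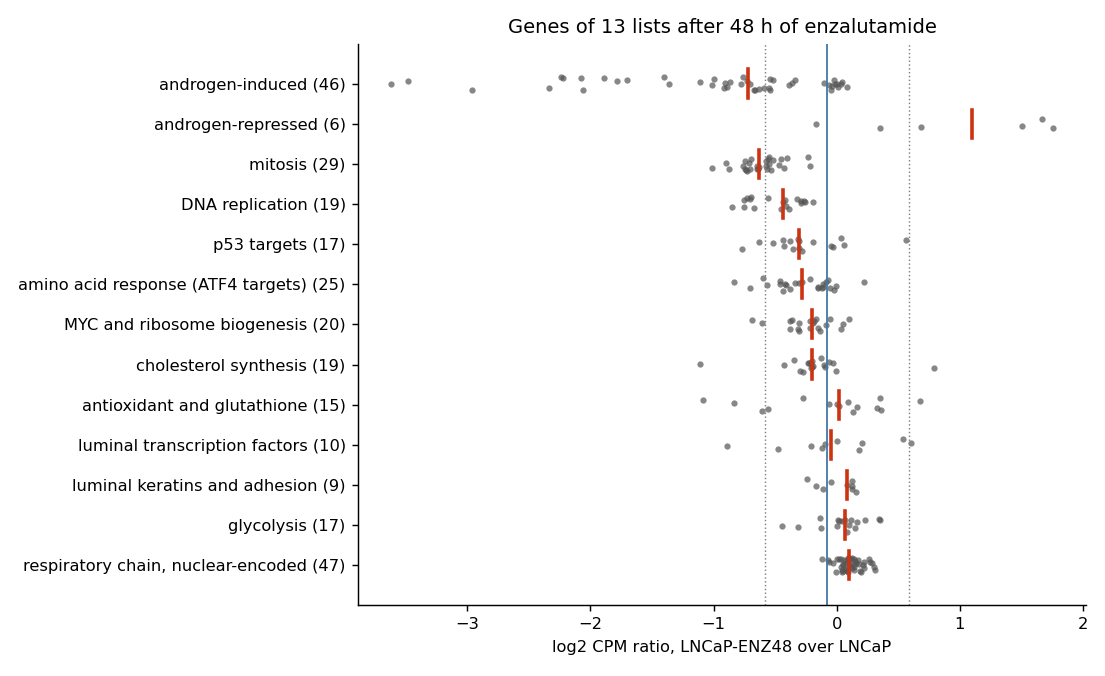
Log2 CPM ratio of LNCaP-ENZ48 over LNCaP for the genes of 13 lists (number of genes compared in parentheses), 1 point per gene. Red bars are list medians, the blue line is the median over all 7302 genes (-0.08) and dotted lines mark 1.5-fold. Androgen-induced genes reach down to -3.62, and androgen-repressed genes have the one median far above 0 (1.10).

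To determine whether all cells or a part of them lost the androgen-induced RNAs, 5000 UMIs were drawn at random from each cell, so that all had the same depth. LNCaP cells then held a median of 22 UMIs of the 75 genes (5th to 95th percentile 11 to 44) and LNCaP-ENZ48 cells 13 (7 to 21). The distribution of the treated cells was lower at each of these percentiles and narrower. The sum includes genes that differed little, such as STEAP1 and STEAP2. It therefore does not show whether every treated cell lost the responsive RNAs. Of LNCaP-ENZ48 cells, 4.80% [4.20, 5.46] were at or above the LNCaP median of 22, against 53.9% [51.7, 56.1] of LNCaP cells, and 31.1% [29.8, 32.5] were under 11, against 3.62% [2.84, 4.52] (exact binomial intervals, counting error only). TMPRSS2 was detected in 35.6% [33.5, 37.7] of LNCaP and 11.8% [10.9, 12.8] of LNCaP-ENZ48 cells, and KLK2 in 54.5% and 7.93%. KLK3 was detected in 53.7% [51.5, 55.9] of LNCaP cells, in 18.6% [17.4, 19.7] of LNCaP-ENZ48 cells and in 1 of 4629 RES-A cells (0.0216%), where the gene is nearly absent (median 12164 UMIs per cell before thinning). In the other direction, ATP1B1 went from 69.1% to 95.1% of cells and AIDA from 44.8% to 71.2%, while CAMK2N1 was detected in 9.06% [7.85, 10.4] and 23.9% [22.7, 25.2], so that most treated cells had no CAMK2N1 UMI at this depth.

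**Figure D3:**
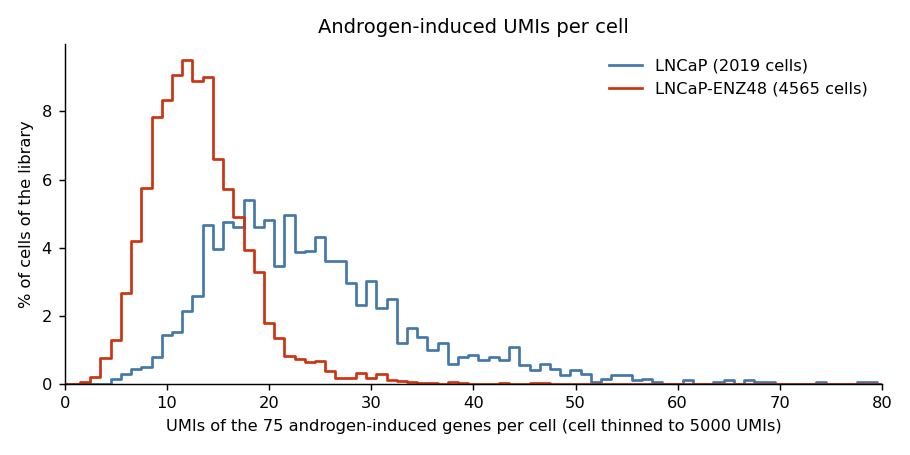
UMIs of the 75 androgen-induced genes per cell after thinning to 5000 UMIs (x axis) against the percentage of cells of the library (y axis). The LNCaP-ENZ48 curve peaks near its median of 13, and the LNCaP curve is broader around 22 with a tail beyond 44.

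The cells of both libraries fell into 2 ranges that differed in KLK3, a pattern noted only after the data had been seen. The ratio of UMIs from the 1745 genes of chromosome 12 to UMIs from the 952 genes of the long arm of chromosome 4 had 2 peaks per library. Over the smoothed histograms of both libraries together, the peaks lay at 2.26 and 3.42, with a trough at 2.78. Single libraries differed somewhat, with the fullest bin of the upper peak at 1.725 on the log2 scale in LNCaP and 1.875 in LNCaP-ENZ48. The higher range held 998 LNCaP cells (49.4% [47.2, 51.6]) and 2442 LNCaP-ENZ48 cells (53.5% [52.0, 54.9]), and 2.87% and 4.78% of cells lay within 0.05 on the log2 scale of the trough. Depth was alike, with medians of 26948 and 25948 UMIs in the higher and lower range of LNCaP and 14311 and 13547 in those of LNCaP-ENZ48. In RES-A and RES-B, 99.4% and 99.7% of cells lay above the trough. Their levels were set above beside LNCaP-ENZ48 as a whole, which mixes both ranges. In the higher range of LNCaP-ENZ48 alone, KLK3 was at 156 CPM and KLK2 at 18.8 CPM, against 30.4 and 23.2 CPM in RES-B.

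In LNCaP, KLK3 was at 1353 CPM [1340, 1367] in the higher range and 113 CPM [109, 117] in the lower, a 12.03-fold difference [11.6, 12.5] among untreated cells. KLK2 went the other way, at 254 and 389 CPM, and TMPRSS2 (113 and 101 CPM) differed by under 1.5-fold. CAMK2N1 was 3.03-fold [2.81, 3.27] higher and ATP1B1 2.05-fold [1.996, 2.11] lower in the higher range. After ENZ, KLK3 was at 156 CPM in the higher range and 19.3 CPM in the lower. The log2 ratio of KLK3 was therefore -3.12 [-3.16, -3.08] in the higher and -2.54 [-2.67, -2.42] in the lower range, that of KLK2 -3.75 and -3.47, and that of TMPRSS2 -2.11 and -2.01. ATP1B1 (1.71 and 1.47), AIDA (1.37 and 1.45), NUCB2 (1.29 and 1.29) and CAMK2N1 (1.62 and 1.92) were higher after ENZ in both. Each of these genes thus went the same way in both ranges, with a larger decrease of KLK3 in the higher one, and treated cells of the higher range still held more KLK3 than untreated cells of the lower. The median of the androgen-induced list was -0.79 in the higher and -0.63 in the lower range over the same 46 genes. Of the genes of the naming rule, UGT2B15 and AADAT lie on chromosome 4 and AC069228.1 on chromosome 12. They entered the ratio that defines the ranges, as did the other genes of these chromosome parts, such as HMGB2 on chromosome 4.

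**Figure D4:**
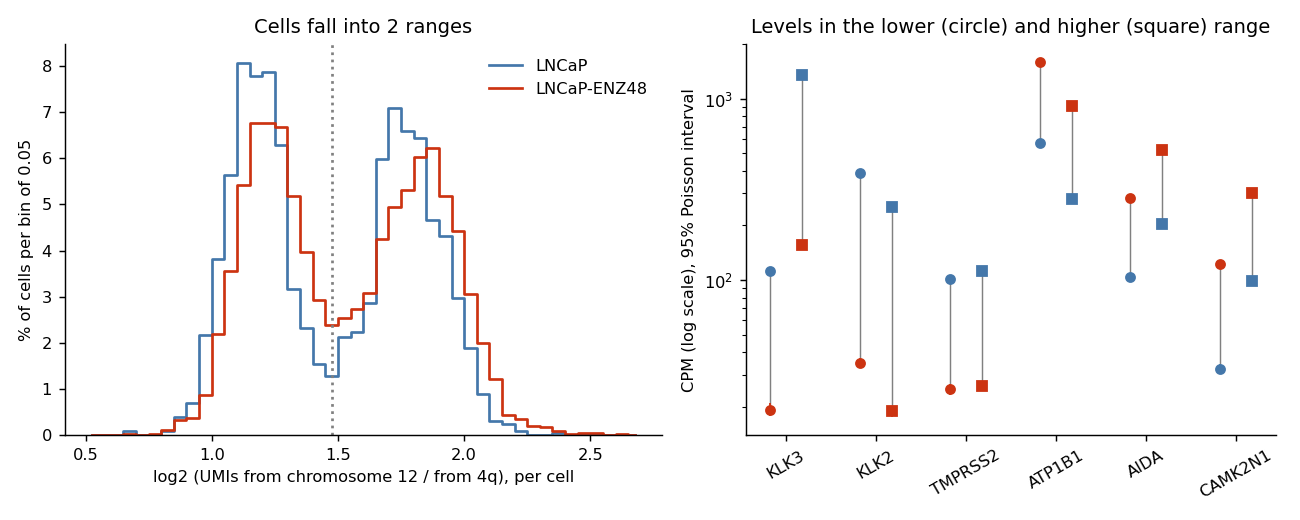
Left, log2 ratio per cell of UMIs from chromosome 12 genes to UMIs from chromosome 4 long-arm genes (x axis) against the percentage of cells per bin (y axis), with the trough as a dotted line. Right, CPM on a log scale of 6 genes in the lower (circles) and higher (squares) range of LNCaP (blue) and LNCaP-ENZ48 (red) with 95% Poisson intervals: KLK3 differs 12.03-fold between the ranges in LNCaP, while TMPRSS2 nearly coincides.

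Treated cells that kept KLK3 UMIs had higher levels of glycolysis and hypoxia genes. Among thinned LNCaP-ENZ48 cells, 270 held at least 3 KLK3 UMIs (5.91%), and their 19 glycolysis genes summed to 68.5 ± 41.0 UMIs (SD over cells) against 31.0 ± 16.7 in the other 4295, a ratio of 2.21. The 17 hypoxia response genes summed to 10.4 ± 8.45 against 4.37 ± 3.80 (ratio 2.38). The ratios were 2.10 and 2.51 within the higher range, which held 251 of these cells. In LNCaP, where 714 cells passed the same mark, the ratios were 1.41 and 1.30 over all cells, 1.37 and 1.62 in the higher range and 1.48 and 1.45 in the lower. The mitosis list was lower in the cells with KLK3 in both libraries (ratio 0.556 in LNCaP-ENZ48 and 0.562 in LNCaP). Cells of 1 library are not replicates, and the mark was chosen after the data had been seen. Between the libraries as a whole, 0 of the 17 glycolysis genes compared (median 0.07) and 0 of the 13 hypoxia genes (median 0.01) were past 1.5-fold in either direction.

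To determine how the cell cycle differed, cells thinned to 5000 UMIs were called for phase from S and G2/M gene scores. Of LNCaP cells 72.5% [70.5, 74.4] were called G1, 6.98% [5.91, 8.18] S and 20.6% [18.8, 22.4] G2/M, and of LNCaP-ENZ48 cells 82.1% [80.96, 83.2], 4.47% [3.89, 5.11] and 13.4% [12.5, 14.5]. The treated library thus held a lower share of S and G2/M cells. Of 29 mitosis genes compared, 15 were at least 1.5-fold lower (51.7%, against 3.40% of all genes) and 0 higher, with a median of -0.63. The kinesin CENPE was at 66.5 and 32.9 CPM (-1.01), the proliferation marker MKI67 at 58.0 and 31.2 CPM (-0.90) and the mitotic kinase PLK1 at 29.0 and 15.8 CPM (-0.87). Of 19 DNA replication genes, 7 were at least 1.5-fold lower (36.8%) and 0 higher, with a median of -0.43, led by CLSPN (15.2 and 8.41 CPM, -0.85), MCM5 (-0.76) and RFC3 (-0.75). The mitosis decrease was larger in the higher range of the chromosome ratio, where 27 of the 29 genes were at least 1.5-fold lower (median -1.04). In the lower range 2 of 29 were (median -0.34). The ratio counts all genes of these chromosome parts, such as the G2/M gene HMGB2 on chromosome 4. The ranges are therefore not independent of the cell cycle, and how far this adds to the contrast was not tested.

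Within cells called S or G2/M the cell cycle medians came near that of all genes (-0.06 in both), while those of the androgen lists stayed away from it, though less far than in all cells. Phases were called from gene lists that share members with these cell cycle lists. Among cells called G2/M the median of the mitosis list was -0.06 and that of the replication list -0.04, among S cells -0.03 and -0.06, and among G1 cells -0.18 and -0.38. The androgen-induced list kept medians of -0.77 in G1, -0.62 in S and -0.49 in G2/M, and the androgen-repressed list 1.03, 0.85 and 1.03. KLK2 was at -3.68, -4.96 and -3.39, whereas TMPRSS2 was at -2.25 and -2.25 in G1 and S and -1.08 in G2/M, and SLC45A3 at -2.57, -2.38 and -1.27. In cells of 16000 to 25000 UMIs, which are the shallower cells of LNCaP (662) and the deeper ones of LNCaP-ENZ48 (1239), the mitosis and replication medians turned to 0.57 and 0.56. S and G2/M cells held more UMIs than G1 cells in both libraries (medians 16734.5 and 15192 against 13733 in LNCaP-ENZ48). Of the cells in that window, 7.43% of the treated against 2.11% of the untreated were called S. The G2/M share there was nearly the same, at 18.3% of the treated and 17.98% of the untreated cells. Why the mitosis median turned was not tested. Between the ranges of the chromosome ratio the share of G2/M calls differed, with 18.9% and 22.1% in the higher and lower range of LNCaP and 10.3% and 17.1% in those of LNCaP-ENZ48. Cell cycle genes entered that ratio, so these shares are not independent of the ranges.

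**Figure D5:**
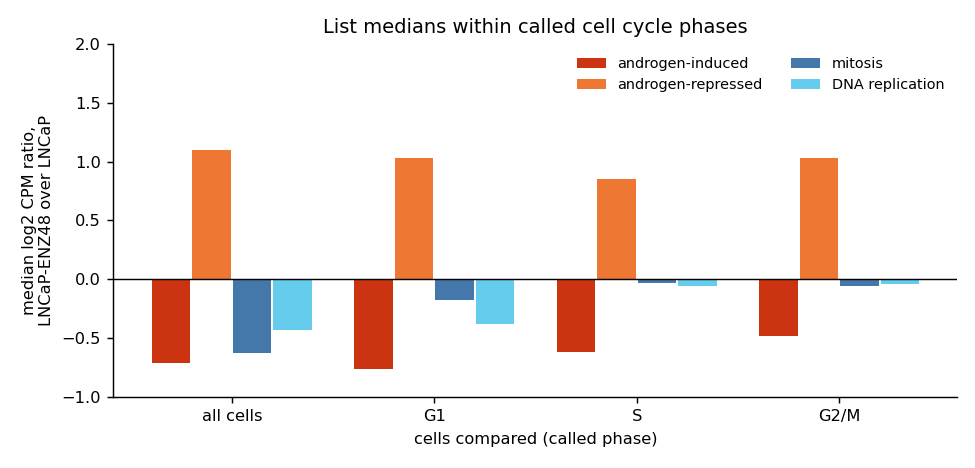
Median log2 CPM ratio of LNCaP-ENZ48 over LNCaP (y axis) of 4 gene lists in all cells and in cells called G1, S and G2/M (x axis). Mitosis and DNA replication medians of -0.63 and -0.43 in all cells come near 0 within S and G2/M cells, and the androgen lists do not.

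Several growth and stress lists had medians under that of all genes (-0.08), with smaller differences and few genes past 1.5-fold, where 3.40% of all genes were lower and 65.3% below 0. MYC, the growth regulator, was at 185 and 115 CPM (-0.69 [-0.73, -0.65]), and 2 of 20 genes of the MYC and ribosome biogenesis list were at least 1.5-fold lower (median -0.20, and -0.10 and -0.09 under TMM and DESeq2 size factors). Of 25 targets of the amino acid stress factor ATF4, 24 were below 0, with a median of -0.28 that was -0.11 in G1 cells and -0.018 in cells of 16000 to 25000 UMIs. The 3 of these at least 1.5-fold lower were the cystine transporter SLC7A11 (173 and 97.2 CPM, -0.83), CEBPB (-0.71) and the hormone STC2 (-0.59). GDF15, a secreted stress cytokine listed with the p53 targets and among the most abundant genes, was at 3887 and 2280 CPM (-0.77 [-0.78, -0.76]), and 2 of 17 p53 targets were at least 1.5-fold lower (median -0.30), the other being PMAIP1 (-0.63). The medians of the ER chaperone (-0.04), heat shock (-0.05) and G1 cyclin (-0.07) lists were near that of all genes. The immediate early list had 2 of 7 genes at least 1.5-fold lower, ATF3 (-0.82) and MYC, which it shares with the list above. In the antioxidant list 3 of 15 were lower, heme oxygenase HMOX1 (100.2 and 47.3 CPM, -1.08), SLC7A11 and GCLM (-0.61), and 1 was higher, the glutathione transferase GSTA1 (0.68).

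Luminal identity genes other than androgen targets differed little. Of 10 luminal transcription factors, ELF3 (41.9 and 63.8 CPM, 0.61) was at least 1.5-fold higher and SPDEF, also on the androgen-induced list, lower (84.9 and 45.8 CPM, -0.89), while GATA2 was at 105 and 153 CPM (0.54), FOXA1, a forkhead pioneer factor, at 157 and 147 CPM (-0.10) and HOXB13 at 135 and 156 CPM (0.21). The 9 luminal keratin and adhesion genes compared held 0 past 1.5-fold (median 0.08), and of 16 neuroendocrine markers only SYT4 (83.0 and 108 CPM, 0.38) and ENO2 (15.1 and 19.3 CPM, 0.35) were expressed enough to be compared. The 47 nuclear-encoded respiratory chain genes had a median of 0.10 with 42 above 0 (34.7% of all genes were) and 0 past 1.5-fold, the median being 0.21 under TMM and DESeq2 size factors, and the 13 mitochondrially encoded ones a median of -0.08. Of 19 cholesterol synthesis genes 18 were below 0, where 65.3% of all genes were. The median was -0.20, and -0.10 and -0.09 under TMM and DESeq2 size factors. Past 1.5-fold, 1 gene was lower (-1.11) and 1 higher, TM7SF2 (159 and 275 CPM, 0.79), the only one above 0. In the WNT, Notch and TGF-beta list, HES6, a transcription cofactor of the Notch pathway, was lower (111 and 51.3 CPM, -1.11) and the TGF-beta decoy receptor BAMBI (37.6 and 66.7 CPM, 0.83) and ID3 (0.59) were higher, of 9 compared. UGT2B15 was the 1 gene past 1.5-fold of 8 in steroid metabolism (median 0.13), and SNHG25 and SNHG9 (0.65) were higher of 9 small nucleolar RNA host genes (median -0.11). The 11 lists not described by their genes, the chaperone and G1 cyclin lists among them, had medians between -0.12 and 0.15. Of their 146 entries compared, 1 was at least 1.5-fold higher and 7 lower, shares near the 0.794% and 3.40% of all genes.

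Some of the genes past 1.5-fold were neighbours on the chromosome, which was noticed after their values were seen. Among 7273 genes placed by GENCODE, 8 of the 58 higher genes (13.8%) had a compared gene next to them on either side that was also at least 1.5-fold higher, where 1.55% of all placed genes had one, and 41 of 246 lower genes (16.7%) had a lower one, where 6.57% had. Such pairs overlapped or lay up to 3077111 bases apart. The 4 higher pairs were AIDA and BROX, MARVELD2 and OCLN, VTA1 and ADGRG6, and DDC and GRB10. AIDA and BROX (0.72) overlap on opposite strands of chromosome 1, and GRB10 stood 24657 bases from DDC on the same strand of chromosome 7. The tight junction genes MARVELD2 (0.65) and OCLN stood 47961 bases apart, and VTA1 (0.68) and ADGRG6 77168. Among the lower genes the kallikreins formed a run with C19orf48 (-1.48), of which KLK3 and KLK2 stood 803 bases apart and KLK2 and KLK4 25783. ELK4 (-0.68) stood 25839 bases from SLC45A3 on the same strand of chromosome 1. Whether such pairs share reads was not tested.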

How the data were processed

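The authors deposited 1 matrix of whole-number UMI counts per gene and barcode for each of 4 libraries (10x Genomics 3' scRNA-seq), made per the labels with Cell Ranger 3.0.2 on GRCh38; the counts were used as deposited. Cells were kept by the rule given above, doublets were not removed, and counts were summed per gene and library and divided by the library total (33538 genes). Fold changes were computed without a test, since each group is 1 library. A gene with no UMI in a library was given the floor of 3 UMIs in ratios. Alternatives were the study's cell filters per library, TMM (edgeR 4.0.16), DESeq2 1.42.0 size factors, thinned cells, cells weighted equally, cells of 16000 to 25000 UMIs, G1 cells, cells without the 5% with the most UMIs, totals without mitochondrial genes, and gene minima of 50 and 1 CPM. Phases were called with scanpy 1.11.5. Ratios and intervals were tested on simulated data, drawn as Poisson counts per gene. This is close to the model behind the intervals and holds no variation between cells or cultures. Named genes were the 12 highest and 12 lowest ratios among genes of at least 20 CPM in a library and past 1.5-fold under every alternative, and members of the 36 hand-written lists; some of these genes are counted but not reported here by name. The members and lists were chosen with earlier results of these data known, and the ranges of the chromosome ratio, the KLK3 mark and the neighbour counts after the data had been seen. Gene positions are from GENCODE v44. Symbols of 8 list genes were not matched and are not analysed here.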

Additional observations from a re-analysis of the deposited data

How the results depend on the processing

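The 24 genes of the naming rule gave 264 values under the alternatives of cells and scaling and in the 2 ranges of the chromosome ratio (chosen after the data had been seen). Of these values, 0 reversed and none was smaller than 0.86 on the log2 scale. The rule took only genes past 1.5-fold in the same direction under every such alternative. Their direction there was thus set by the choice, and only the values in the 2 ranges were free to reverse. The counts of genes past 2-fold, 14 higher and 48 lower of 7302, moved by over 1.5 times with the gene minimum, which also changed the number of genes compared. They were 7 and 18 of 2290 genes at 50 CPM, and 57 and 127 of 12364 at 1 CPM. The higher count became 44 in cells of 16000 to 25000 UMIs. The lower count became 31 under TMM, 31 under DESeq2 size factors and 85 in the higher range. The androgen-induced median of -0.72 became -0.61 in cells of 16000 to 25000 UMIs, -0.61 under TMM, -0.61 under DESeq2 size factors, -0.62 in the lower range and -0.54 at 50 CPM. The androgen-repressed median of 1.10 became 1.20 under TMM, 1.21 under DESeq2 size factors, 1.02 in the lower range, 0.69 at 50 CPM and 1.28 at 1 CPM. Scoring each library alone moved the S and G2/M shares of LNCaP to 9.26% and 17.98%. Of 414 values of the other 32 list medians, 44 changed sign, 25 of them from medians of at most 0.12 in size that were smaller than the median interval half-width of their genes. The other 19 follow. In cells of 16000 to 25000 UMIs these were mitosis (0.57), DNA replication (0.56), the S and G2/M phase lists (0.50 and 0.40), glycolysis (-0.14), fatty acid synthesis (0.027) and luminal keratins (-0.00025). Under TMM and DESeq2 size factors they were fatty acid synthesis (0.025 and 0.032), polyamine synthesis (0.028 and 0.035), metallothioneins (0.011 and 0.017), mitochondrially encoded respiratory genes (0.025 and 0.031) and the IGF, EGF and PI3K pathway (0.0098 and 0.016), and under DESeq2 size factors alone small nucleolar RNA host genes (0.0034). The WNT, Notch and TGF-beta median was 0.13 in the lower range. The cause was not tested. No paired analysis was possible because each group is 1 library. With 1 library a side, the intervals hold counting error only, and a difference between cultures of the same treatment would look the same.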
